A study of Mus musculus with 34 samples.

Results

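Ifit1, Ifit2, Ifit3, Mx1, Oasl2, Usp18, Isg15, Bst2 and Irf7 are genes that mouse cells transcribe in answer to interferon, and they were followed here through mouse liver tumours that carry altered forms of β-catenin. They were taken by gene symbol, 9 of the 14086 genes in a table of normalized counts from 18 libraries. A further table of z-scores, holding 1659 genes that the authors selected, has 5 of them (Ifit1, Ifit2, Mx1, Oasl2 and Usp18) and was used for 16 other libraries. In the normalized counts the induced samples carried the β-catenin skip 1 isoform (5 libraries), the skip 2 isoform (2) or ΔN90-β-catenin (4), each with the word "induced" in its label. Their references were samples labelled with the skip 1 isoform alone (3), the skip 2 isoform alone (2) or wild type (2). The z-scored libraries were tumours of subtype A (4), tumours of subtype B (9) and samples with sgActin and YAPS127A (3), the control of that table. All samples are labelled as liver cells, and the same protocol text stands on every one, wild type included: hydrodynamic injection as a model of liver cancer, total RNA from frozen tumours, and strand-specific libraries. Strain, age, sex and the promoter of the injected constructs are not given in the labels. For the 4 skip 2 samples a further label field repeats skip 1, and the source label was followed. Whether the libraries of a group stem from different animals is not stated, and a p-value here measures only how much these libraries spread, which may be technical.

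Interferons are secreted proteins that signal through cell-surface receptors, JAK kinases and STAT transcription factors. Type I and type III interferons assemble a complex that holds STAT2 and IRF9 and binds the interferon-stimulated response element, while interferon gamma acts through gamma-activated sequences. The induced proteins block steps of viral replication, modify other proteins or feed back on the pathway, and in liver both hepatocytes and resident macrophages respond. β-catenin is the transcriptional effector of Wnt signalling, and forms that lack the N-terminal region escape degradation.

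Promoter sequences are shown because the response element is what the members are known to share. Windows from 250 bases before to 50 after the annotated start came from RefSeq for the GRCm38.p6 (mm10) build and matched 7 of the 9 members in 8 windows. Mx1 and Usp18 are named only. The core of the response element, GAAANNGAAA on either strand with overlapping matches counted, was found for 4 of these 7 members. It was found for 1079 of all 27025 genes with a window (3.99%). The lines below hold the stretch around the matches, 5′ to 3′ on the gene's strand, with the matches in capitals.
Isg15, chr4:156200855-156200916, minus strand: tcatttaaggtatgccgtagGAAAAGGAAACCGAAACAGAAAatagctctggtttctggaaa
Bst2, chr8:71537567-71537622, minus strand: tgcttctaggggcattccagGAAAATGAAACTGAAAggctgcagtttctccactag
Ifit3, chr19:34583353-34583436, plus strand: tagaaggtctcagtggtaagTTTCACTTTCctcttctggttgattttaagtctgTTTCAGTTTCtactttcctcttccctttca
Ifit1, chr19:34640765-34640833, plus strand: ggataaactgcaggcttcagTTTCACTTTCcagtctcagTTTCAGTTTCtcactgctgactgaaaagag
Isg15 held 3 matches, beginning 66 to 78 bases before the start, and Bst2 held 2, at 124 and 130 bases. In Ifit3 the 2 matches began 122 and 156 bases before the start and in Ifit1 85 and 104 bases, all 4 on the strand opposite to the gene. The windows of Oasl2, Irf7 and Ifit2 did not hold these letters. The core of the gamma-activated sequence, TTCNNNGAA, was found for Bst2 and Ifit2, 2 of the 7 members, and for 2582 of the 27025 genes (9.55%). These matches describe letters only.

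Libraries held 361772 to 933146 estimated reads, a value taken from the step that 1 read is worth in each library, and 1 read stood for 0.460 to 1.64 normalized counts. Most members therefore rested on few reads: Ifit1 on 7 to 26 per induced library against 1 to 5 per library that was not induced, and Bst2, the best covered, on 19 to 64 against 18 to 49. The deposited columns summed to 415528 to 524243 in induced libraries and to 610688 to 694773 in the others, so scaling every library to the same sum moves the median of all genes up by 0.50 in the log2 difference between them. Skip 1 induced libraries 1 and 2 stood apart from the other induced libraries on the first principal component (scores of 4.81 and -7.48, against 14.3 to 54.2), and the number of members called in each comparison that uses them was the same without both. Hepatocyte markers were present in every library. In these bulk samples, fewer cells of a type and less RNA per cell cannot be told apart.

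Most members were higher in induced samples, 7 of the 9 by limma without a minimum on the level. Ifit2 and Ifit1, which encode RNA-binding proteins with tetratricopeptide repeats, Mx1, Usp18 and Irf7 lay above all 7 libraries that were not induced in each of the 11 induced libraries. These are 5 of the 9 members, where 2.29% of all genes in the table were separated in that direction. Among genes with a mean of at least 10 normalized counts over the 18 libraries, limma on log2(value + 1) called 4 of 5 members higher at an adjusted p under 0.05 and none lower, where 17.2% of the 6592 genes kept were called higher and 20.8% lower. Ifit2, Ifit3 and Usp18 passed that minimum only through the induced groups (they averaged 1.75, 4.31 and 6.22 normalized counts in the other libraries), so this count is a description. Without the minimum, 7 of the 9 members were called higher, against 16.3% of the 14086 genes, and Isg15 and Bst2 were not.

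**Figure D1:**
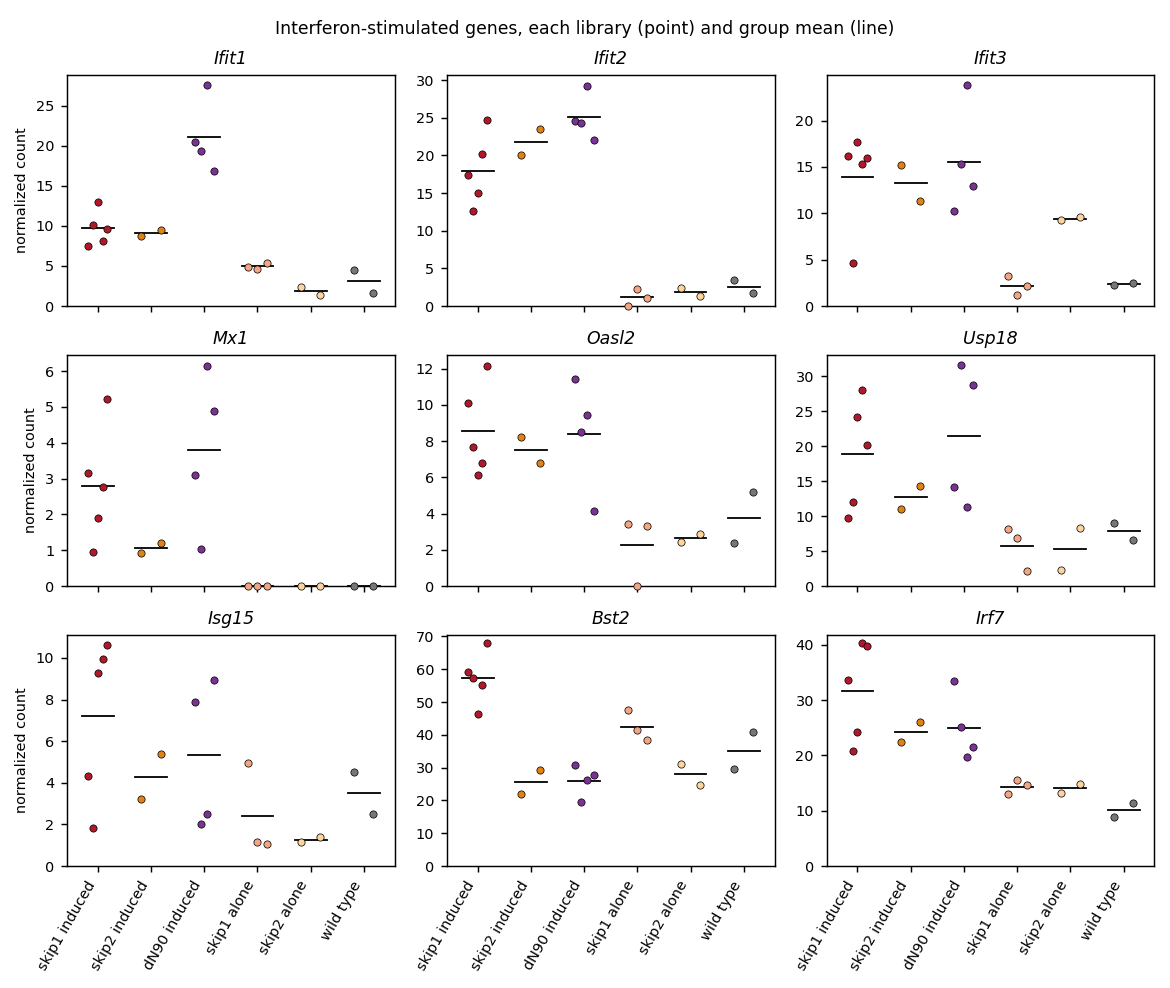
Normalized count (y axis, linear, starting at 0) of each of the 9 genes by sample group (x axis); each point is 1 library and each line the group's mean. Ifit2 sits between 12.6 and 29.3 in the induced libraries and between 0 and 3.43 in the others, while Bst2 overlaps between induced and not induced libraries and is highest in the skip 1 induced group.

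Ifit2 (chr19:34550694-34576419) had the largest difference of the 9 members between induced and not induced libraries on the log2(value + 1) scale. Its product binds viral RNA and the translation machinery. The normalized count was 17.4, 12.6, 15.01, 20.2 and 24.7 in skip 1 induced libraries 1 to 5, 20.1 and 23.5 in the skip 2 induced pair, and 24.6, 24.4, 29.3 and 22.1 in ΔN90 induced libraries 1 to 4. With the skip 1 isoform alone it was listed at 0, 2.32 and 1.08, with the skip 2 isoform alone at 2.33 and 1.39, and in wild type at 3.43 and 1.68. No induced library came near the others. The log2 difference between induced and not induced libraries was 3.07 (SE 0.26, limma adjusted p = 1.03e-08), which is 8.39-fold for values with 1 added. The mean counts themselves were 21.3 and 1.75, so the fold depends on the added constant. Over the alternative runs, which included constants of 0.5 and 5, the log2 difference ran from 1.95 to 3.45. It was 3.28 for skip 1 induced against skip 1 alone (SE 0.38, adjusted p = 1.12e-05), 3.01 for skip 2 induced against skip 2 alone (SE 0.52, adjusted p = 0.000443) and 3.29 for ΔN90 induced against the 3 groups that were not induced (SE 0.33, adjusted p = 9.29e-08). Ifit2 was the only tested member that passed in all 3 of these. The last shares 5 of its 7 control libraries with the others.

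Ifit1 (chr19:34640871-34650009) lies in the same cluster on chromosome 19, and its product binds RNA that lacks the cap methylation of host transcripts. It stood at 7.53, 10.2, 13.003, 8.12 and 9.58 in the skip 1 induced libraries, at 8.73 and 9.53 in the skip 2 induced libraries, and at 20.4, 19.4, 27.6 and 16.9 in the ΔN90 induced libraries. The values were 4.93, 4.60 and 5.33 with skip 1 alone, 2.31 and 1.37 with skip 2 alone, and 4.53 and 1.66 in wild type. The ΔN90 induced libraries were highest, the skip 1 and skip 2 induced libraries overlapped each other below them, and the others were lowest. With a mean of 9.76 the gene missed the minimum. Without it, the log2 difference for all induced libraries was 1.73 (SE 0.24, limma adjusted p = 3.38e-06), for ΔN90 2.44 (adjusted p = 5.82e-07) and for skip 2 induced against skip 2 alone 1.85 (adjusted p = 0.0136). For skip 1 induced against skip 1 alone it was 0.82 and missed the threshold (adjusted p = 0.141), although the groups did not overlap.

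Ifit3 (chr19:34583531-34588731), whose product in human cells stabilises IFIT1, did not separate as widely. It measured 16.1, 4.63, 17.6, 15.3 and 15.97 in the skip 1 induced libraries, 15.2 and 11.3 in the skip 2 induced libraries and 10.2, 15.3, 23.8 and 12.9 in the ΔN90 induced libraries. The skip 1 alone libraries had 3.29, 1.15 and 2.13, the skip 2 alone libraries 9.25 and 9.61, and wild type 2.27 and 2.49. Both skip 2 alone libraries lay above every other library that was not induced and above skip 1 induced library 2. The log2 difference was 1.61 for induced against not induced libraries (SE 0.28, limma adjusted p = 0.000112), 2.17 for skip 1 (SE 0.41, adjusted p = 0.00132) and 1.74 for ΔN90 (SE 0.35, adjusted p = 0.000607). For skip 2 it was 0.44, with a 95% interval of -0.73 to 1.60. The difference between the skip 1 and skip 2 changes, 1.73 (SE 0.69), did not pass (limma adjusted p = 0.402), nor did that of any other member tested, in a test that called 0.167% of genes. With 2 libraries in each skip 2 group this test has little power. Its calls over all genes went from 11 to 4 without skip 2 induced library 1 and to 150 without library 2. Of 1696 stretches of 50 bases in Ifit3 transcripts, 869 (51.2%) also occur in Ifit3b, so the level of Ifit3 is uncertain. Ifit3b itself was listed at group means of 0.383 to 2.64.

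Mx1 (chr16:97447035-97462907, minus strand), which encodes a dynamin-like GTPase that traps viral ribonucleoproteins, was listed at 0 in all 7 libraries that were not induced. It was above 0 in each of the 11 induced libraries, at 3.17, 0.940, 1.89, 2.75 and 5.22 with skip 1, 0.934 and 1.21 with skip 2, and 3.09, 1.04, 6.15 and 4.87 with ΔN90. These values rest on 1.02 to 4.90 estimated reads per library, so no fold is given. Without the minimum on the mean, the fitted difference passed for all induced libraries (limma adjusted p = 0.000349), for skip 1 (adjusted p = 0.0151) and for ΔN90 (adjusted p = 0.000345), and did not for skip 2 (adjusted p = 0.378). A share of 3.86% of its 50-base stretches is shared with Mx2.

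Oasl2 (chr5:114896936-114912234), a relative of the 2′-5′ oligoadenylate synthetases with ubiquitin-like domains, was at 10.1, 7.69, 6.11, 6.79 and 12.2 in skip 1 induced, 8.22 and 6.81 in skip 2 induced and 11.4, 8.48, 9.44 and 4.13 in ΔN90 induced libraries. It was at 3.42, 0 and 3.32 with skip 1 alone, 2.40 and 2.85 with skip 2 alone, and 2.35 and 5.18 in wild type. The groups met only where ΔN90 induced library 4 fell below wild type library 2. Without the minimum, the log2 difference was 1.33 for all induced libraries (SE 0.32, limma adjusted p = 0.00267), 1.80 for skip 1 (adjusted p = 0.0146) and 1.34 for ΔN90 (adjusted p = 0.0164), while the 1.23 for skip 2 did not pass (adjusted p = 0.279).

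Isg15 and Usp18 act on the same modification. Isg15 (chr4:156199424-156200818, minus strand) encodes the ubiquitin-like protein that is attached to others, and it was not called in any comparison of the fit without the minimum, the fit that holds it. It stood at 4.30, 1.85, 9.29, 9.93 and 10.6 in skip 1 induced, 3.22 and 5.36 in skip 2 induced, and 7.87, 2.04, 2.51 and 8.94 in ΔN90 induced libraries. The values were 4.93, 1.15 and 1.07 with skip 1 alone, 1.16 and 1.37 with skip 2 alone, and 4.53 and 2.49 in wild type. Within both the skip 1 and the ΔN90 group some libraries lay at the level of the controls and others well above it. The log2 difference for all induced libraries was 0.94 without the minimum (SE 0.37, limma adjusted p = 0.0617). A share of 3.96% of its 50-base stretches also occurs in AC151275.1.

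Usp18 (chr6:121245906-121270917) encodes the protease that removes ISG15 and also restrains signalling at the type I receptor. It was at 9.68, 12.03, 24.1, 28.0 and 20.2 in skip 1 induced, 11.03 and 14.3 in skip 2 induced, and 14.2, 31.6, 11.3 and 28.8 in ΔN90 induced libraries. With skip 1 alone it was at 8.22, 6.90 and 2.13, with skip 2 alone at 2.31 and 8.24, and in wild type at 9.06 and 6.65. Induced and other libraries did not overlap, though skip 1 induced library 1 and wild type library 1 were neighbours. The log2 difference was 1.37 for all induced libraries (SE 0.31, limma adjusted p = 0.0013), 1.63 for ΔN90 (SE 0.39, adjusted p = 0.00232) and 1.60 for skip 1 (SE 0.45, adjusted p = 0.0200). The skip 1 call was lost without skip 1 induced library 3 (1.49, adjusted p = 0.0519), without library 4 (1.43, adjusted p = 0.0545) or without skip 1 alone library 3 (1.11, adjusted p = 0.153). The skip 2 difference was 1.29, with a 95% interval of 0.02 to 2.57 (adjusted p = 0.170), and it passed with equal column sums (1.80, adjusted p = 0.0432).

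Irf7 (chr7:141262706-141266481, minus strand) encodes the transcription factor that amplifies type I interferon genes. It was at 33.5, 20.8, 24.2, 40.3 and 39.8 in skip 1 induced, 22.4 and 25.99 in skip 2 induced, and 33.4, 25.1, 19.7 and 21.5 in ΔN90 induced libraries. The controls had 12.9, 15.5 and 14.66 with skip 1 alone, 13.2 and 14.8 with skip 2 alone, and 8.91 and 11.4 in wild type. Every induced library lay above every other one. The log2 difference was 1.00 for all induced libraries (SE 0.17, limma adjusted p = 9.24e-05), 1.05 for skip 1 (SE 0.25, adjusted p = 0.00695) and 0.90 for ΔN90 (SE 0.21, adjusted p = 0.00248). For skip 2 it was 0.75, with a 95% interval of 0.04 to 1.45 (adjusted p = 0.154), and it passed with equal column sums (1.31, adjusted p = 0.0119). Irf7 overlaps Phrf1 on the opposite strand, and whether the authors' counting used strand is not given in the sources used here.

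Over the separate inductions, limma called 4 of 5 kept members higher for skip 1 (6.55% of kept genes were), 1 of 5 for skip 2 (6.52%) and 4 of 5 for ΔN90 (17.6%). Since Ifit2, Ifit3 and Usp18 passed the minimum only through the induced groups, these counts too are a description. Without the minimum, 6 of 9 were called higher for skip 1 (5.75% of all genes were), 2 of 9 for skip 2 (4.43%) and 7 of 9 for ΔN90 (14.5%). Counted by separation, 7 of 9 members lay above skip 1 alone in every skip 1 induced library, against 7.91% of all genes. For skip 2 it was 8 of 9, but with 2 libraries a side 31.3% of all genes separated this way. For ΔN90 it was 6 of 9, against 8.19%.

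**Figure D2:**
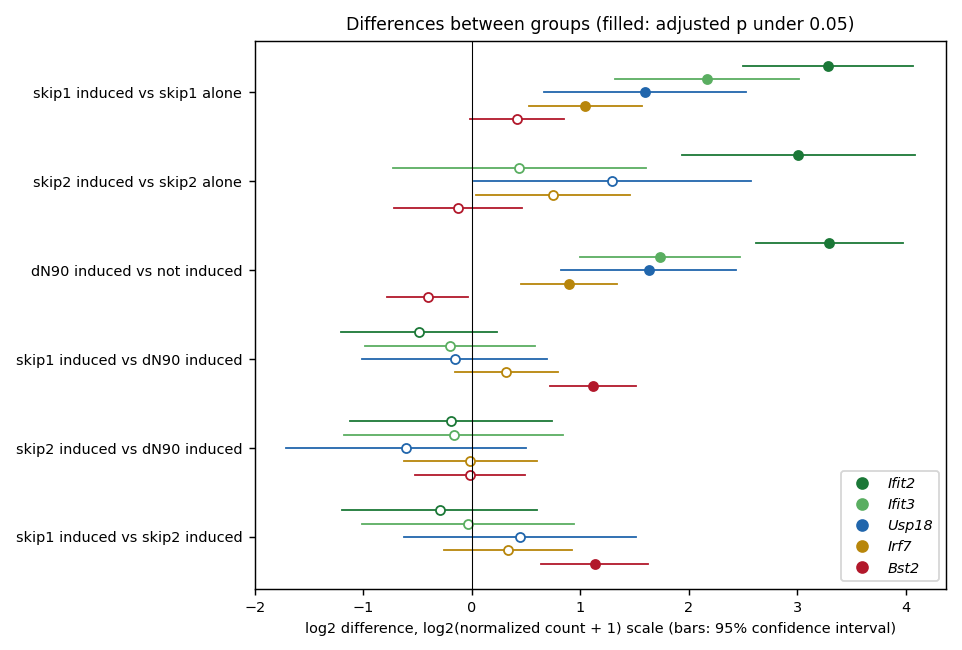
Log2 difference on the log2(normalized count + 1) scale (x axis) with its 95% interval for Ifit2, Ifit3, Usp18, Irf7 and Bst2 in 6 comparisons; filled points passed an adjusted p under 0.05 in limma. Ifit2 sits near 3 in each comparison of induced with not induced samples, and Bst2 passes only in the comparisons of skip 1 induced with ΔN90 induced (1.11) and with skip 2 induced samples (1.13).

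Bst2 (chr8:71534255-71537456, minus strand) encodes tetherin, which holds budding virus at the cell surface, and it followed another order than the rest. It was at 59.2, 57.4, 46.4, 55.1 and 68.1 in skip 1 induced libraries, 22.1 and 29.2 in skip 2 induced libraries, and 30.7, 19.4, 26.3 and 27.8 in ΔN90 induced libraries. It was at 47.7, 41.4 and 38.4 with skip 1 alone, 31.2 and 24.7 with skip 2 alone, and 29.5 and 40.7 in wild type. Skip 1 induced libraries lay above all 6 other induced libraries. Of all genes in the table, 2.53% separated this way from ΔN90 and 7.77% from skip 2. The skip 1 induced libraries overlapped the skip 1 alone group. Group means were 57.2 ± 7.81 (SD, n = 5) for skip 1, 25.6 ± 5.04 (n = 2) for skip 2 and 26.1 ± 4.80 (n = 4) for ΔN90. The order of the 6 group means was skip 1 induced, skip 1 alone (42.5 ± 4.75, n = 3), wild type (35.1 ± 7.97, n = 2), skip 2 alone (28.0 ± 4.59, n = 2), ΔN90 induced and skip 2 induced, and each neighbouring pair in that order overlapped.

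The skip 1 induced group exceeded ΔN90 induced by a log2 difference of 1.11 for Bst2, or 2.16-fold (SE 0.19, limma adjusted p = 0.000679). It exceeded skip 2 induced by 1.13, or 2.19-fold (SE 0.24, adjusted p = 0.0112). In each of these comparisons Bst2 was the 1 member of 5 called, against 4.63% and 3.53% of all kept genes. The first held in every alternative run, at 0.98 to 1.20. The second rests on 2 skip 2 induced libraries, and it was lost without library 1 of that group (0.94, adjusted p = 0.460) and with log2 estimated reads as a covariate (1.20, adjusted p = 0.319). For skip 1 induced against skip 1 alone the difference was 0.42, with a 95% interval of -0.01 to 0.85 (limma adjusted p = 0.194), or 0.88 and called with equal column sums (adjusted p = 0.00405). For all induced against not induced libraries it was -0.04 (-0.34 to 0.25). For ΔN90 induced against not induced libraries it was -0.41 (SE 0.18, limma adjusted p = 0.0782). Scaled to equal column sums, the difference of all induced from not induced libraries turned to 0.46 (adjusted p = 0.00847), close to the median of all genes at that scaling, 0.48.

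Some markers of other cell types were also called higher in skip 1 than in ΔN90 induced samples, where 4.63% of kept genes were called in either direction. Of 7 endothelial markers 3 were called higher (Clec4g 1.25, Cdh5 0.94, Kdr 0.75). The summed normalized counts of the list overlapped, at 279.3 to 334.9 in skip 1 and 175.3 to 300.1 in ΔN90 induced libraries. Of 9 macrophage markers 3 were called higher, and the sums overlapped, at 343.3 to 580.3 in skip 1 and 293.9 to 459.3 in ΔN90. Of 8 hepatocyte markers 3 were called higher (Cyp3a11 2.31, Ttr 1.89, Serpina1c 1.20), and the sums overlapped, at 15641 to 48169.6 in skip 1 and 17470.9 to 21154.5 in ΔN90. Between skip 1 and skip 2 induced samples no macrophage, endothelial or pan-leukocyte marker was called and 1 of 8 hepatocyte markers was lower (Ahsg, -1.13), with endothelial sums of 279.3 to 334.9 in skip 1 and 267.6 to 268.1 in skip 2. The part of these cells in the Bst2 values was not tested.

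The values of Ifit1 were ordered the other way, without passing the test. All 5 skip 1 and both skip 2 induced libraries lay below every ΔN90 induced library. Of all genes in the table, 2.85% were separated in that direction for skip 1 and 8.89% for skip 2. The log2 differences without the minimum, -1.05 (SE 0.32) and -1.10 (SE 0.41), did not pass limma over 14086 genes (adjusted p = 0.0891 and 0.283). Between skip 2 and ΔN90 induced samples no member was called, and none had an unadjusted p under 0.05 among the kept genes, of which 3.03% were called. The widest of those differences was for Usp18, -0.60 (-1.71 to 0.50), and that of Bst2 was -0.02 (-0.53 to 0.49). Apart from Bst2, the kept members differed between skip 1 and ΔN90 induced samples by -0.49 for Ifit2 (-1.21 to 0.23), -0.20 for Ifit3, -0.16 for Usp18 and 0.32 for Irf7, none of which passed.

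**Figure D3:**
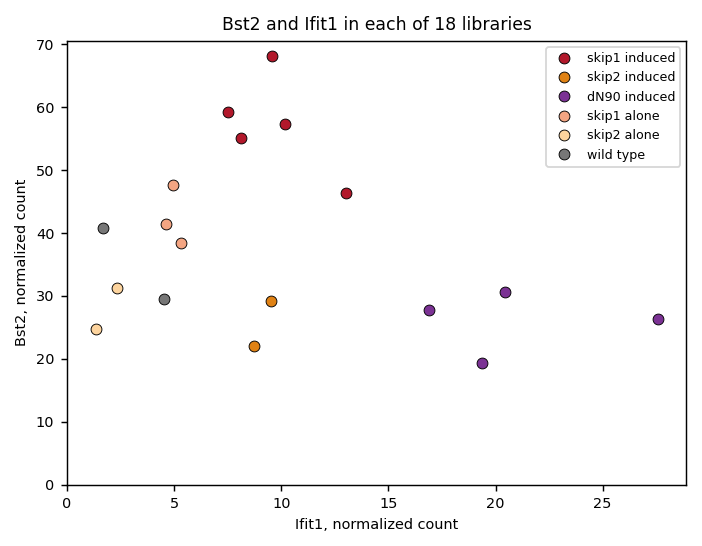
Normalized count of Ifit1 (x axis) against that of Bst2 (y axis) in the 18 libraries, 1 point per library, by group. Skip 1 induced libraries stand at the top (Bst2 46.4 to 68.1), ΔN90 induced libraries at the right (Ifit1 16.9 to 27.6), and skip 2 induced libraries have a Bst2 count of 22.1 and 29.2 with an Ifit1 count of 8.73 and 9.53.

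The isoforms alone were compared with wild type to see the members without induction. Limma called no member for skip 1 alone, where 0% of kept genes were called and no member had an unadjusted p under 0.05. It called none for skip 2 alone either, where 0.0152% of kept genes were called and Ifit3 alone had an unadjusted p under 0.05 (log2 difference 1.63, SE 0.56, limma adjusted p = 0.875). Irf7 lay above wild type in all 3 skip 1 alone libraries (0.47, 95% interval -0.18 to 1.11) and in both skip 2 alone libraries (0.43, -0.27 to 1.14). Ifit1 also lay above wild type in the skip 1 alone libraries and Ifit3 in the skip 2 alone libraries, while Isg15 lay below wild type with skip 2 alone. With 2 wild type libraries, 7.91% of all genes separated upward for skip 1, 16.3% upward for skip 2 and 15.3% downward for skip 2.

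The wider pathway was read from lists of named genes, whose counts stand beside the 17.2% of kept genes called higher and 20.8% called lower in induced samples. No gene of the 7 interferons listed (Ifnb1, 3 Ifna genes, Ifnl2, Ifnl3 and Ifng) was among the genes of the table, so ligands were not analysed here. Of 11 receptor and signalling genes tested, 4 were called higher in induced than in not induced libraries and none lower: Ifngr1, a chain of the interferon gamma receptor (log2 difference 1.28), Il10rb, a chain of the interferon lambda receptor (1.16), the kinase gene Jak2 (0.79) and Irf9 (0.43). Stat2, whose product pairs with IRF9, did not pass (0.37, adjusted p = 0.0670 in limma). Among 8 sensor and adaptor genes, 2 were called higher: Ddx58, which encodes the RNA sensor RIG-I (0.69), and Ticam1, an adaptor of Toll-like receptor 3 (0.50), a share near that of all kept genes.

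Of 15 other type I interferon-stimulated genes tested, 6 were called higher in induced libraries and 2 lower. Samd9l (1.64), Rtp4 (0.92), Parp12 (0.67) and Lgals3bp (0.64) led the higher ones. The 2 lower genes are no larger a share than among all kept genes. Dtx3l, which encodes a ubiquitin ligase partner of PARP9, was lower (-0.58), as was the membrane protein gene Ifitm2 (-0.43). Of 8 genes that answer mostly to interferon gamma, 4 were called higher and none lower: Irf8 (1.08), Nlrc5, the transactivator of MHC class I genes (0.78), Irf1 (0.73) and the GTPase gene Igtp (0.64). The medians of the 4 lists were 0.37, 0.04, 0.21 and 0.61, beside -0.01 for all genes. With equal column sums the counts higher became 10, 5, 12 and 6 with none lower, and Dtx3l (-0.07) and Ifitm2 (0.08) did not pass. That scaling raised the median of all kept genes to 0.48, and 3911 of 6592 were called in either direction, against 2508 before. The rise in the list counts therefore goes with a shift of all genes.

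By induction, the genes called were as follows. For skip 1 induced against skip 1 alone, Irf9 (0.80) and 5 of 15 other type I genes led by Samd9l (1.62) were called higher. So were 4 of 8 gamma-leaning genes (Gbp6 1.43, Gbp7 1.13, Irf1 1.07, Igtp 1.00). Of all kept genes, 6.55% were called higher for skip 1, 6.52% for skip 2 and 17.6% for ΔN90. For skip 2 the called genes were Samd9l (2.02), Il10rb (1.13) and Ddx58 (1.03), 1 each from lists of 15, 11 and 8 tested genes. For ΔN90, Il10rb (1.42), Ifngr1 (1.12), Samd9l (1.25), Irf8 (1.30) and Nlrc5 (0.87) were among those higher, while Ifitm2 (-0.74), Dtx3l (-0.53) and the GTPase gene Iigp1 (-0.59) were lower. These splits depend on scaling and on whether depth is fitted. Samd9l was not called for skip 2 with quantile normalization or with log2 estimated reads as a covariate, nor for ΔN90 with that covariate. With equal column sums, the receptor, sensor, type I and gamma-leaning lists had 6, 1, 9 and 8 genes called higher for skip 1, 5, 2, 7 and 2 for skip 2 and 10, 5, 10 and 5 for ΔN90, and none lower. At that scaling 1835, 1700 and 3596 of all 6592 kept genes were called in either direction, against 971, 985 and 2471. The median of all kept genes rose to 0.43, 0.52 and 0.53. With quantile normalization the 4 lists had 0, 0, 4 and 1 genes called higher for skip 1. They had 0, 1, 0 and 0 for skip 2 and 2, 2, 2 and 2 for ΔN90, with 1 type I gene lower for ΔN90. With the covariate they had 1, 0, 4 and 4 for skip 1, with 1 type I gene lower. For skip 2 this gave 1, 1, 0 and 0. For ΔN90 it gave 2, 0, 0 and 3, with 2 type I genes and 1 gamma-leaning gene lower. In direct tests, no gene of the 4 lists was called for skip 2 against ΔN90 induced or for skip 1 against skip 2 induced samples. For skip 1 against ΔN90 induced samples Iigp1 (0.60, limma adjusted p = 0.0313) was the 1 gene called. That call was lost with equal column sums (0.56, adjusted p = 0.0588) and without skip 1 induced libraries 1 and 2 together (0.64, adjusted p = 0.0623).

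**Figure D4:**
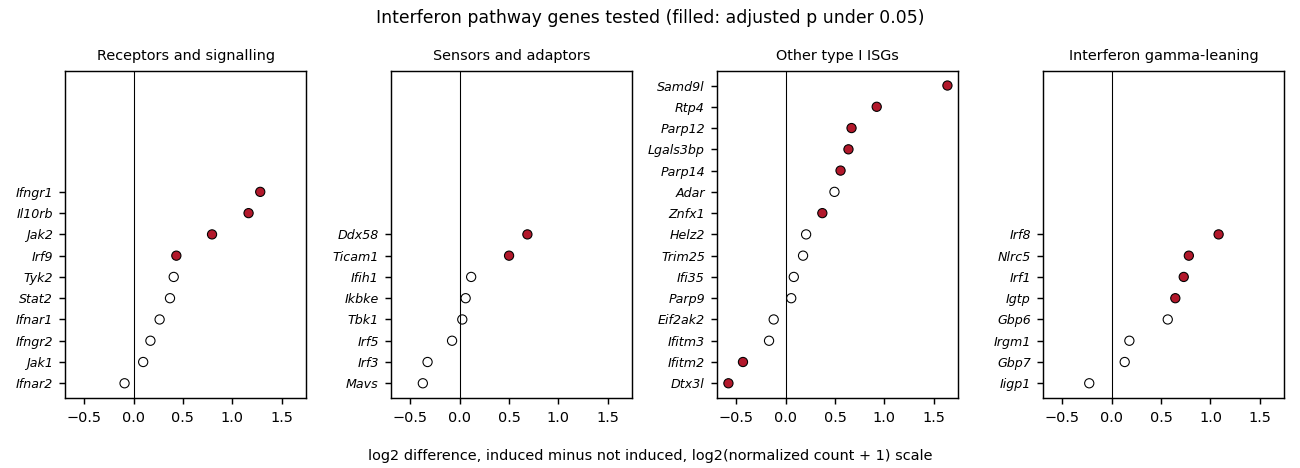
Log2 difference of induced minus not induced libraries (x axis) for the tested genes of 4 interferon pathway lists, 1 panel per list; filled points passed an adjusted p under 0.05 in limma. Samd9l (1.64), Ifngr1 (1.28) and Irf8 (1.08) lie at the upper ends of their lists, and Dtx3l (-0.58) and Ifitm2 (-0.43) are the called genes below 0.

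Pan-leukocyte markers were higher in induced libraries without overlap, while the sums for the separate leukocyte types overlapped. The summed normalized count of the pan-leukocyte markers ran from 56.6 to 96.6 in induced and from 19.3 to 37.1 in not induced libraries, with both tested markers called higher (Laptm5 1.43, Ptprc 1.00). Macrophage sums ran from 293.9 to 580.3 and from 238.8 to 351.5, with 6 of 9 tested markers called higher, among them C1qb (1.16) and Csf1r (1.05). Of all kept genes 17.2% were called higher. The T and NK cell sum was 2.16 to 10.2 in induced and 0 to 5.33 in not induced libraries, and the neutrophil sum 3.75 to 19.9 and 1.13 to 5.41. The B and plasma cell sum was 0 to 10.6 and 0 to 2.79. These sums rest on few counts, from 4 of 9, 3 of 6 and 4 of 6 listed markers. Dendritic cell sums overlapped, at 25.3 to 79.2 and 21.8 to 61.4, as did endothelial sums, at 175.3 to 334.9 and 253.6 to 305.5. Hepatocyte sums were 15641 to 48169.6 and 54153.9 to 72540.2, with 4 of 8 markers called lower, as were 20.8% of kept genes. The part of these cells in the members' values was not tested.

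The genes whose pattern over the 18 libraries was most like that of the kept members were Anxa5 (r = 0.93), Mpeg1, a macrophage perforin gene (0.92), Gas6 (0.92), Cdc23 (0.91), Gstm2 (0.91), Piezo1 (0.91), H2-Q1, an MHC class I gene (0.90), Iqgap1 (0.90), Tubb5 (0.90) and Cdkn1a (0.89). The measure is Pearson's r with the mean of the kept members' standardised values, across 18 libraries that share the induced and not induced split. Within the 11 induced libraries alone, r ran from 0.29 for Iqgap1 to 0.76 for Gstm2.

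In the z-scored tumours, the 5 members present were lower in subtype A than in subtype B by the group means, and 3 of them passed. A z-score is a gene's distance from its own mean in SDs over its block of libraries, so differences give no fold. Ifit2 was at -0.21, -0.08, -0.39 and -0.29 in the 4 subtype A tumours, against a lowest, median and highest of -0.03, 0.45 and 0.66 in the 9 subtype B tumours. Those ranges did not overlap, as for 4.1% of the 1659 genes. The difference was -0.61 (SE 0.13, limma adjusted p = 0.00223). Mx1 was at -0.31, -1.05, -0.35 and -0.38 in subtype A and at -0.63, 0.52 and 1.51 (lowest, median, highest) in subtype B, a difference of -1.01 (SE 0.33, adjusted p = 0.0170). Oasl2 was at -0.04, -0.87, -0.53 and -0.58 in subtype A and at -0.60, 0.51 and 1.18 in subtype B, a difference of -0.92 (SE 0.31, adjusted p = 0.0200). Both overlapped, and both lost their call without subtype A library 2 (-0.83, adjusted p = 0.0618 for Mx1, and -0.80, adjusted p = 0.0624 for Oasl2). Oasl2 also lost it without subtype A library 4 (-0.90, adjusted p = 0.0504).

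Ifit1 and Usp18 did not pass between the subtypes. Ifit1 was at -0.32, -0.35, -0.38 and -0.21 in subtype A and at -0.53, 0.34 and 1.18 in subtype B, a difference of -0.57 (95% interval -1.18 to 0.04, limma adjusted p = 0.0910). It passed without subtype B library 1 (-0.67, adjusted p = 0.0422). Usp18 was at -0.78, -0.11, 0.59 and 0.38 in subtype A and at -0.16, 0.32 and 1.87 in subtype B, a difference of -0.46 (-1.26 to 0.34). The 3 of 5 called lower stand beside 20.9% of the selected genes, and the members' median of -0.61 beside 0.19 over all of them. In either direction, 1014 of the 1659 selected genes were called between the subtypes. The authors named the selection as differentially expressed genes, so the calls between subtypes are a description. Pan-leukocyte markers moved the same way, with Laptm5 (-0.79) and Coro1a (-0.77) both called lower in subtype A, while all 3 endothelial markers of that table were called higher. The part of leukocytes in these differences was not tested.

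**Figure D5:**
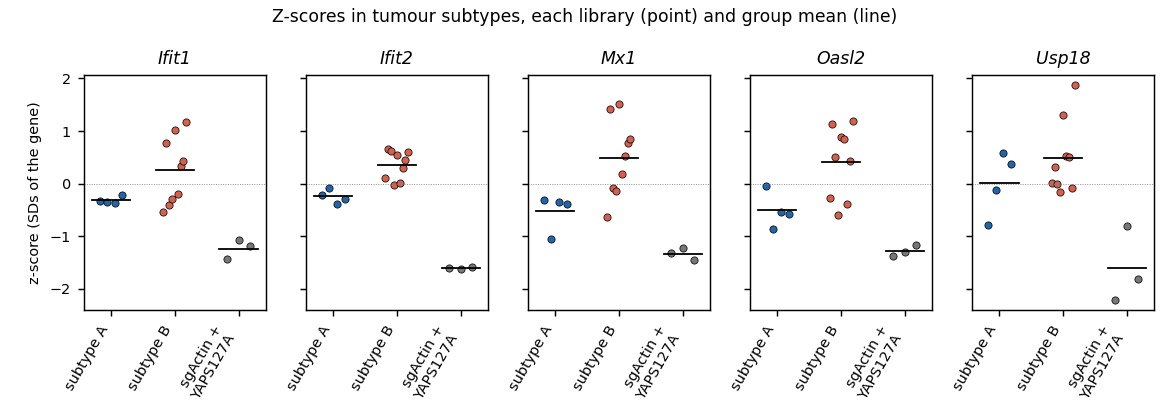
Z-score (y axis) of Ifit1, Ifit2, Mx1, Oasl2 and Usp18 in subtype A, subtype B and sgActin and YAPS127A samples (x axis); each point is 1 library and each line the group's mean. The 3 control libraries lie between -2.20 and -0.81, below every tumour for each gene, and subtype A lies below subtype B without overlap for Ifit2.

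All 5 members lay above the sgActin and YAPS127A samples in every tumour of both subtypes, as 43.6% of the selected genes did in either comparison. Among the 3 control libraries Ifit2 was at -1.60, -1.62 and -1.58, Ifit1 at -1.44, -1.07 and -1.18, and Usp18 at -2.20, -0.81 and -1.82. Subtype B exceeded the control for all 5 (Ifit2 1.96, limma adjusted p = 1.45e-09, and the others 1.49 to 2.09), where 44.1% of selected genes were called higher. Subtype A exceeded it for Ifit2 (1.35, adjusted p = 1.14e-06), Usp18 (1.63, adjusted p = 0.00415) and Ifit1 (0.92, adjusted p = 0.0239), where 41.7% were. In either direction, 1653 of the 1659 selected genes were called for subtype B and 1614 for subtype A. Nearly every gene of the selection thus differs from the control, so these calls are a description and do not set the members apart. The Ifit1 call was lost without control library 1 (0.81, adjusted p = 0.0790). Mx1 (0.81, adjusted p = 0.0753) and Oasl2 (0.77, adjusted p = 0.0731) missed the threshold in subtype A, and Mx1 passed without subtype A library 2 (0.98, adjusted p = 0.0464). Both comparisons share the 3 controls, in which Laptm5 and Coro1a were also lower, by 1.58 and 1.55 SD units than in subtype A and by 2.37 and 2.32 than in subtype B.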

How the data were processed

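Per the submitters' processing notes, the reads went through FastQC, STAR, RSEM and DESeq2 on build mm10, with versions, settings and strand use in counting not given in the sources used here. For 18 libraries the authors deposited a signal, normalized counts that are never negative. In each library 59.3% to 60.5% of the values above 0 fell on multiples of 1 step (tolerance 0.001), and the column sum over that step gave the estimated reads. The authors also deposited z-scores, a score per gene centred and scaled within a block of libraries, for a selection of genes. They named these as differentially expressed genes, and the comparison and threshold behind the selection are not known here. Only the block with the 16 subtype and control libraries was used, since the other columns repeat the 18 libraries. Its depth is unknown. No column was left unmapped.

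Genes with a mean of at least 10 (6592) were tested as log2(value + 1) with limma (version 3.58.1, R 4.3.3), using a trended prior and a coefficient for each group. The contrast of all induced with all not induced libraries used equal weights per group. Z-scores were tested with limma without a trend. Tests were two-sided with Benjamini-Hochberg adjustment over all genes tested and a threshold of 0.05. Differences on this scale understate the change of low genes. The script was tested on simulated data. The 9 members are all named; pathway and marker lists give counts and up to 4 called genes each, by size. Members and lists were chosen with earlier results of these data known. Gene positions come from the mm10 annotation and promoters from RefSeq. For 1 gene counted in the receptor and signalling list the value is not reported here, in text or plot.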

Additional observations from a re-analysis of the deposited data

Results flagged for a closer look

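Of 28 groups of 4 to 10 libraries examined, 2 held a library farther from the rest than Dixon's 95% critical value allows, where chance alone flags about 1 in 20. Ifit3 in skip 1 induced library 2 stood at 2.49 on the log2(normalized count + 1) scale, below the other 4 of its group. That library is also 1 of the 2 that stood apart on the first principal component. Without it the log2 difference of Ifit3 was 1.72 for induced against not induced libraries (limma adjusted p = 7.87e-06) and 2.49 for skip 1 induced against skip 1 alone (adjusted p = 7.76e-05). Mx1 in subtype A library 2 stood at a z-score of -1.05, below the other 3 tumours of that subtype. Without it the difference of Mx1 between subtype A and subtype B was -0.83 and no longer passed (limma adjusted p = 0.0618).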

How the results depend on the processing

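Of 1050 recomputed values for 60 member results, 1030 kept their direction where called and their side of the threshold, 11 lost their call, 8 gained one and 1 reversed. Another 40, counted among the unchanged, altered sign but were called under neither setting. The reversal was Bst2 in induced against not induced samples at equal column sums (0.46). The members called in induced samples, in skip 2 and in ΔN90 numbered 7, 2 and 7 both without a minimum and with a mean of at least 1, where 9 members were tested in place of 5, against 4, 1 and 4. The call of Bst2 between skip 1 and skip 2 induced samples was lost with log2 estimated reads as a covariate, leaving 0 members against 1, and equal column sums gave 3 members for skip 2 against 1. A fit on only the compared groups gave 5 members for subtype A against its control in place of 3. The cause was not tested beyond the change in genes or samples fitted. Leaving out 1 replicate gave 4 to 4 members for induced samples, 3 to 4 for skip 1, 1 to 1 for skip 2, 4 to 4 for ΔN90, 1 to 1 for skip 1 against ΔN90, 0 to 1 for skip 1 against skip 2 induced, 0 to 0 for skip 2 against ΔN90 and for both isoforms alone, 1 to 4 for subtype A against subtype B, 2 to 4 for subtype A and 5 to 5 for subtype B against their control. For Usp18, the ΔN90 difference against wild type alone was 1.23 (adjusted p = 0.101). Among z-scores, array weights gave -0.72 (adjusted p = 0.0324) for Ifit1 in subtype A against subtype B and 0.82 (adjusted p = 0.110) against the control. A mean of at least 50 left no member and gave no value. The mean of at least 1, equal column sums, and leaving out skip 1 induced libraries 1 and 2 together were chosen after seeing the data. Low read numbers limit Mx1, Isg15, Oasl2 and Ifit1. No paired analysis was possible because the labels give no replicate numbers, and the numbers used here only follow accession order. Calls over all genes moved by over 1.5 times in several settings: 2508 against up to 3911 for induced samples and 971 against 568 to 1835 for skip 1. They were 985 against 346 to 1700 for skip 2, 2471 against 1499 to 3596 for ΔN90, 233 against 10 to 400 for skip 1 against skip 2 induced, and 200 against 0 to 308 for skip 2 against ΔN90 induced. For the difference between the skip 1 and skip 2 changes they were 11 against 4 to 150.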

Other observations

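The oligoadenylate synthetase genes, which encode sensors of double-stranded RNA related to Oasl2, fell below the minimum mean in the normalized counts and were not tested there. In the z-scores Oas1a exceeded the sgActin and YAPS127A control by 1.28 in subtype A (limma adjusted p = 0.0132) and by 1.42 in subtype B (adjusted p = 0.00265). Of the selected genes, 41.7% and 44.1% were called higher in these comparisons and nearly all in either direction, so these calls are a description. Oas1a was at 4.08 to 23.4 normalized counts in induced libraries and at 0 to 3.40 in the others, without overlap, as for 2.29% of all genes. Oas3 was at 2.04 to 10.6 in induced libraries and overlapped the others because of a skip 2 alone library at 8.24. Oas2 (1.08 to 5.59 in induced and 0 to 2.32 in not induced libraries) and Oasl1 (4.46 to 12.3 in induced and 1.58 to 7.19 in not induced libraries) overlapped. Oas1b stayed at or under 3.29 in all 18 libraries. Rsad2, which encodes the antiviral enzyme viperin, averaged 8.71, 5.63 and 6.96 in skip 1, skip 2 and ΔN90 induced samples and 2.57, 4.37 and 2.38 with skip 1 alone, with skip 2 alone and in wild type. These genes were named after their values were seen.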
